A study of Mus musculus with 78 samples.

Results

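The livers of mice that drank dichloroacetate (DCA) without a break for 32 weeks were compared with those of mice whose DCA had been withdrawn 22 weeks before the same collection. The libraries were chosen by their labels as those of either group that also stand in the normalized table, which gave 12 of the 68 kept libraries, out of 78 in the series. The continued group, S2-32, held 6 male B6C3F1 mice (numbers 37 to 42) that received 3.5 g/L DCA in drinking water for 32 weeks from an age of 4 weeks. The stopped group, S1-32, held 6 male B6C3F1 mice (19 to 24) of the same starting age that received 3.5 g/L DCA for 10 weeks and plain drinking water for the next 22. Each library came from sections of a separate formalin-fixed, paraffin-embedded liver, archived for decades, and was read with a targeted panel of 2755 mouse genes, in which probes for abundant transcripts were attenuated. Levels can therefore be compared between mice but not between genes, and the gene with the most counts in a list need not have the most RNA. No untreated group entered, so a difference says only how continued and stopped exposure differed, not which of the groups had moved.

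DCA is a by-product of water chlorination and a liver carcinogen in mice. It resembles pyruvate and inhibits the kinases that switch off the pyruvate dehydrogenase complex, so that more pyruvate enters the mitochondria, and it is broken down by glutathione transferase zeta, which it also inactivates. Hepatocytes supply most plasma proteins, among them the acute phase proteins that are made in bulk when cytokines act through STAT3, NF-kB and C/EBP factors. They also burn fatty acids in mitochondria and peroxisomes under the control of the nuclear receptor PPARA, and they rarely divide in the adult liver.

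Total counts were 2979117 to 3914572 in the stopped group and 1484484 to 3049702 in the continued group, lower in the latter by a two-sided exact permutation test (p = 0.00433, 6 against 6 mice). Only mouse 37 of the continued group exceeded the shallowest stopped library, so depth and exposure cannot be told apart in these libraries. The number of genes with a count averaged 2332.5 (SD 117) in the continued and 2388.5 (SD 45.3) in the stopped group. This difference did not pass the test (exact permutation p = 0.305). The 10 most abundant genes took 47.2% ± 7.08 (SD, n = 6) of the counts in the stopped group and 34.5% ± 5.07 (SD, n = 6) in the continued group. Levels below are counts scaled to a common library size (CPM) with trimmed mean (TMM) factors, which ranged from 0.686 to 0.996 in the stopped and from 1.11 to 1.3 in the continued libraries.

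Some libraries stood apart within their group. The library of mouse 41 correlated with the other 11 at r = 0.799 to 0.863 (Pearson, log2 CPM across genes, which are not independent replicates), while every pair without it reached at least 0.905. The first principal component (39.4% of the variance) ordered the mice with all stopped libraries below 0 and all continued ones above 0, but mice 37 and 38 lay at 3.01 and 2.44 and the other continued mice at 13.55 to 58.24. Mouse 19 of the stopped group carried RNA of pancreas genes, given below. Without mouse 41 the number of genes called below was 483, without mouse 19 it was 392, and without both it was 458, of which 372 were among the 446 called with all 12 mice.

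Of the 2205 genes tested, 446 (20.2%) differed between continued and stopped exposure at an adjusted p of at most 0.05 and a fold beyond 1.5, with 214 (9.71%) higher and 232 (10.5%) lower in the continued group. Single genes are given below as the log2 fold change, continued minus stopped, with its standard error (SE), the adjusted p and the number of the 6 continued mice on that side of the stopped median. The 6 libraries of either group did not overlap in CPM for 261 genes (11.8%). The lower genes included acute phase and other secreted liver proteins and macrophage, endothelial and cholesterol synthesis genes, and the higher ones cell cycle and fatty acid oxidation genes. Among 47 gene lists, the most negative median log2 fold changes were -4.00 for pancreas genes, which rested on mouse 19, -1.33 for acute phase genes, -0.96 for serpins and -0.78 for complement. The most positive were 2.22 for female-biased genes (6 tested, 1 of the 3 called resting on few counts), 1.59 for the cell cycle, 1.03 for immediate-early genes and 0.90 for PPARA targets, against 0.01 for all genes tested. When total count was added as a covariate on the log2 scale, the list medians became 0.0985 for serpins and 0.40 for immediate-early genes. The calls depended on how spread and depth were modelled: 78 genes were called when the variance was estimated over 13 groups of the series, and 42 with the log2 total count as a covariate. All 446 genes kept their direction in the former and 437 of them in the latter. Of 136 genes named by rule and called, 98 lost the call in the former and 116 in the latter.

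**Figure D1:**
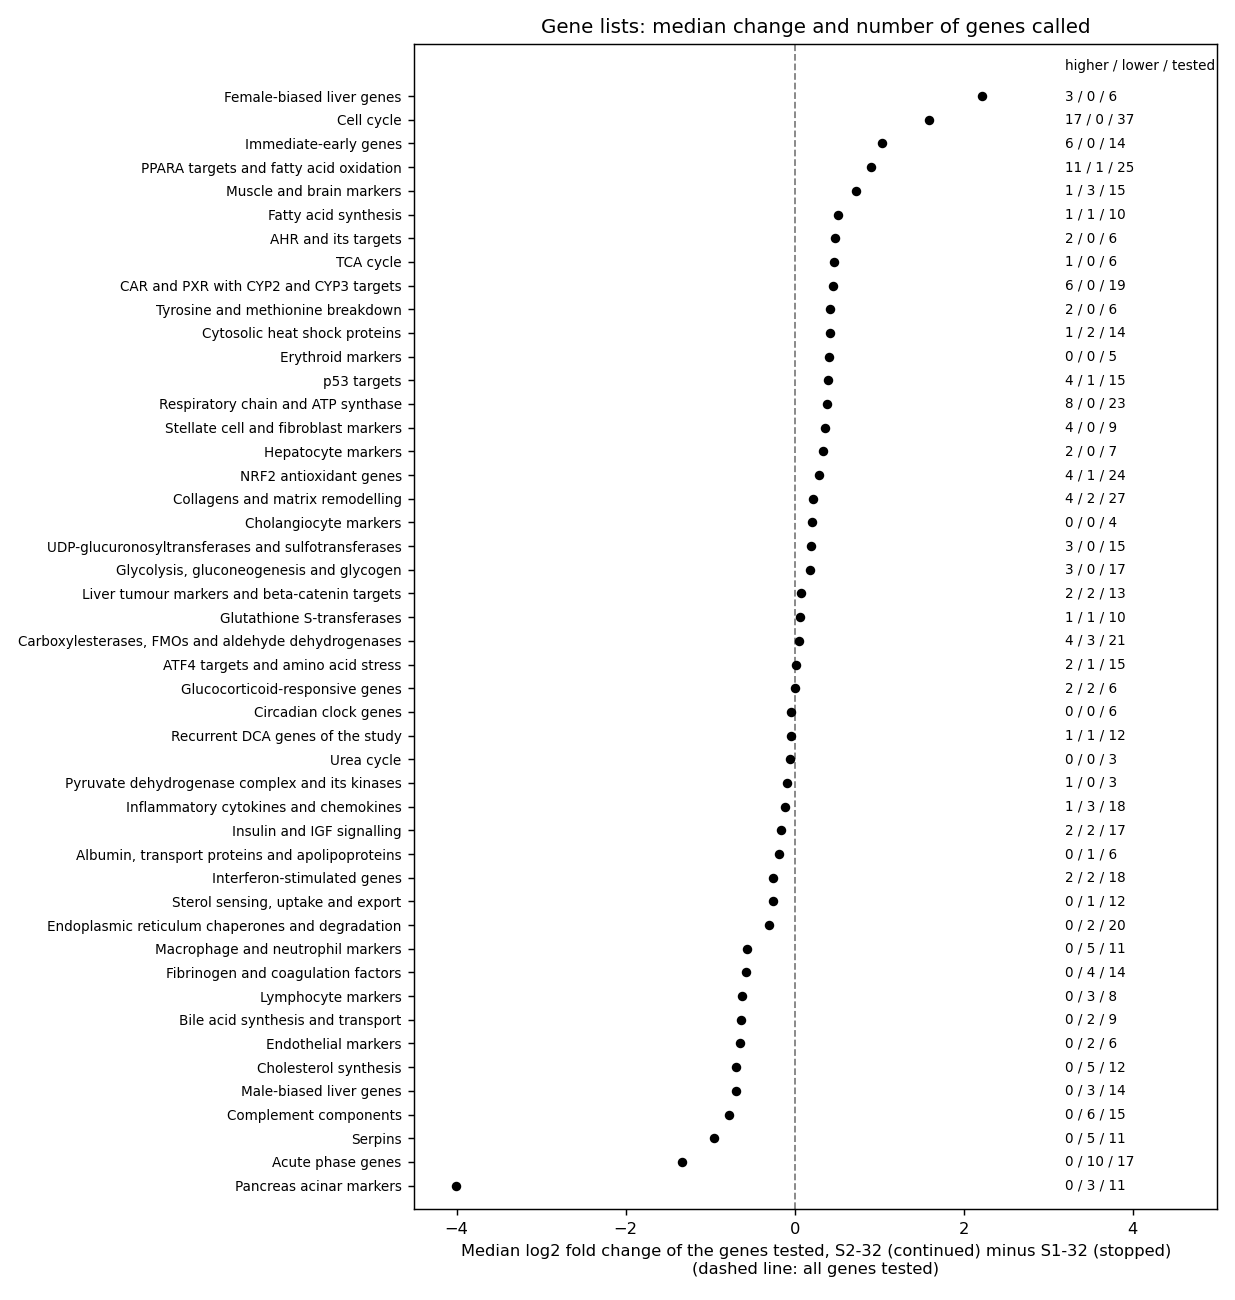
Each point is the median log2 fold change (continued minus stopped DCA at 32 weeks) of the tested genes of a list, beside the number called higher, called lower and tested. The dashed line is the median of all genes tested, 0.01, and the acute phase and cell cycle lists lie on opposite sides of it at -1.33 and 1.59.

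Acute phase genes were lower in the continued livers. Of 17 tested, 10 were lower in the continued group and none was higher, beside 10.5% of all genes lower and 9.71% higher. The 10 include the transcription factors STAT3 (-1.08 ± 0.31 SE, adjusted p = 0.0239) and NFKB1 (-1.38 ± 0.32 SE, adjusted p = 0.00819), so not all encode plasma proteins. The C/EBP factors CEBPB (0.57 ± 0.25 SE, adjusted p = 0.119) and CEBPD (1.71 ± 0.62 SE, adjusted p = 0.0641) had positive values and were not called. Serum amyloid A genes encode lipoproteins of inflammation, and the lowest, median and highest levels of SAA2 were 580.4, 62828 and 244524 CPM in the stopped group and 36.4, 98.9 and 524 CPM in the continued group. All 6 continued livers lay below every stopped liver, although mouse 19 of the stopped group, at 580.4 CPM, came close to the continued mouse 40 at 524 CPM. The log2 fold change of SAA2 was -8.90 ± 1.33 SE, adjusted p = 0.000927, 6 of 6, and it was -8.28 without mouse 23 and -9.54 without mouse 40. For SAA1 the levels were 1618, 91025 and 299345 CPM in the stopped group and 142, 605 and 1710.1 CPM in the continued group, and here mouse 19 fell inside the continued range while the other 5 stopped mice, from 26208 CPM up, were above it (-7.20 ± 1.13 SE, adjusted p = 0.00136, 6 of 6). SAA1 and SAA2 are near-identical, so how reads were divided between them is uncertain. In mouse 23 they reached 299345 and 244524 CPM.

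LCN2, which encodes the iron-siderophore binding protein lipocalin 2, ran at 78.5, 2993 and 11899 CPM in the stopped group and 4.17, 11.7 and 19.9 CPM in the continued group, with no overlap (-8.48 ± 1.12 SE, adjusted p = 0.000456, 6 of 6), and its change was -7.84 without mouse 20. LRG1, a leucine-rich plasma glycoprotein outside the list, followed with 1546, 3764 and 8471 CPM in the stopped group and 247, 369.5 and 753 CPM in the continued group and no overlap (-3.17 ± 0.46 SE, adjusted p = 0.00076, 6 of 6). The haptoglobin gene HP, whose product binds free haemoglobin, showed a smaller separation of 1488, 4033 and 8138 CPM in the stopped group and 708, 1131 and 1394 CPM in the continued group (-2.13 ± 0.39 SE, adjusted p = 0.00334, 6 of 6), again without overlap. The stopped mice kept nearly the same order across these genes, with mice 20, 21 and 23 high, 22 and 24 lower and 19 lowest. SERPINA3N, an inhibitor of serine proteases, was lower too (-2.45 ± 0.61 SE, adjusted p = 0.012, 6 of 6), but mouse 19, at 78.2 CPM, lay below 5 of the 6 continued mice. ORM3, of the orosomucoid family and also outside the list, had 0.584 to 25 CPM (median 18.8) in the stopped group and at most 0.725 CPM in the continued group. Its change was -6.61 ± 0.96 SE, adjusted p = 0.00076, 6 of 6. Without mouse 38, the only continued mouse with a count, the fit gave -8.52, which is not a measured size because no count remained in that group. In all, 267 counts in the stopped and 2 in the continued libraries gave a ratio of 125 (exact 95% interval 34.2 to 1037, counting error only). SAA2, LCN2 and ORM3 were among 7 named genes that were called under every alternative that kept the main thresholds.

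**Figure D2:**
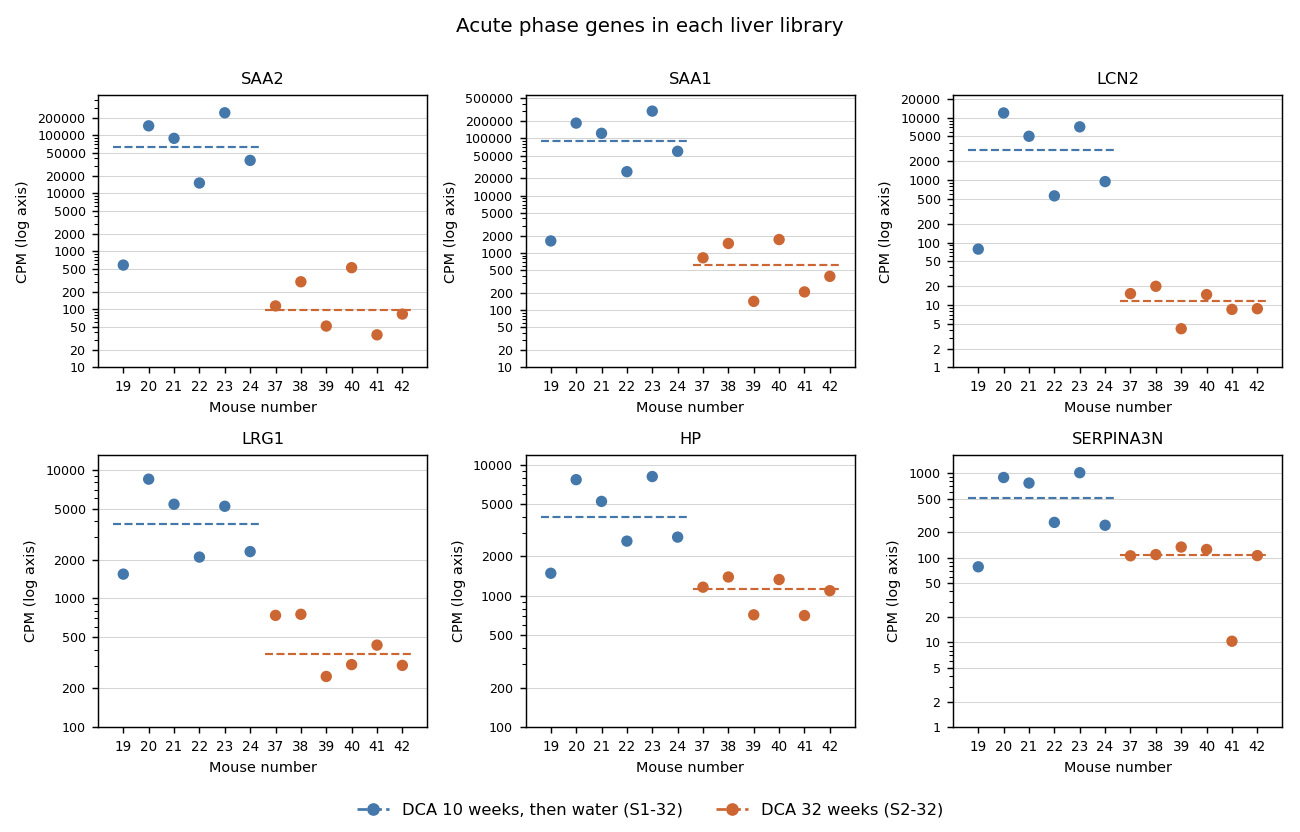
CPM on a log axis for SAA2, SAA1, LCN2, HP and SERPINA3N of the acute phase list and for LRG1 in each liver, with mouse numbers on the horizontal axis and the median of each group as a dashed line. Stopped mouse 19 is the lowest stopped liver in every panel, and the groups overlap for SAA1 and SERPINA3N.

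The promoters of Saa1 (chr7:46742931-46743230, minus strand), Saa2 (chr7:46751583-46751882, plus strand) and Lcn2 (chr2:32387690-32387989, minus strand), the acute phase genes with the largest falls among those whose promoter was at hand, are printed from 250 bases before to 50 after the start (RefSeq, GRCm38.p6). Capitals mark the core TTGCNNAA that C/EBP factors are known to bind, searched on both strands, and it begins at -182, -183 and -216 relative to the start. These letters occurred in 4 of 7 acute phase genes called lower that have a promoter in the table, in 2 of 6 not called, and in 10.8% of 32851 promoters of the same length. The 4 were FGA, LCN2, SAA1 and SAA2. The promoters printed for Saa1 and Saa2 are nearly the same sequence, so their matches are not independent. The NF-kB-like letters GGNNTTTCC were in 1 of 7, 0 of 6 and 5.82%, respectively, and in none of the promoters printed here.
Saa1: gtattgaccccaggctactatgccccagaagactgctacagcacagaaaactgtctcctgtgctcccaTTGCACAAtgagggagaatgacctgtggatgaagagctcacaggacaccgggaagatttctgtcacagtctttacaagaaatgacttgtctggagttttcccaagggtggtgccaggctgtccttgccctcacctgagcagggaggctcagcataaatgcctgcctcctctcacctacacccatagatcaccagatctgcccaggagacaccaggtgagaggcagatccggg
Saa2: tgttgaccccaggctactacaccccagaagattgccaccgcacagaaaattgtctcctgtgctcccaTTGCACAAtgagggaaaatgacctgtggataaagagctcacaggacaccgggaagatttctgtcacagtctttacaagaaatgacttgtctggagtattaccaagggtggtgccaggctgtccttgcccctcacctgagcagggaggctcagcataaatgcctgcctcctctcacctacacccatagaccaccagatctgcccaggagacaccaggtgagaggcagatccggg
Lcn2: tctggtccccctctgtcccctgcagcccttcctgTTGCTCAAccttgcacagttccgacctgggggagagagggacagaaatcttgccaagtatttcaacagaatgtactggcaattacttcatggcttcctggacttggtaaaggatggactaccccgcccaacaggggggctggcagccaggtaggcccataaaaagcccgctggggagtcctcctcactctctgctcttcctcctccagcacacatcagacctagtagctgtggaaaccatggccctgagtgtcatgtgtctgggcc

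Some genes of other plasma proteins were called lower, beside 10.5% of all genes tested. Of 15 complement genes 6 were lower and none higher, of which C1QB and C1QC are made by macrophages and are counted again among the markers of those cells; of 14 coagulation genes 4 were lower, and of 11 serpins, which inhibit proteases, 5 were lower. These lists share members, since FGA, SERPINA3N and SERPINA3M are also among the 10 acute phase genes called lower and SERPINA10 counts in both the coagulation and the serpin list. With the total count as a covariate, the medians of the coagulation genes and serpins, -0.58 and -0.96 at first, came to 0.0557 and 0.0985, on the other side of 0. C1S1, a protease of the first complement component, had 1595, 1632 and 1916 CPM in the stopped group and 183, 596 and 859 CPM in the continued group and did not overlap (-1.56 ± 0.28 SE, adjusted p = 0.00284, 6 of 6). HC, which encodes complement C5, ran at 3029 to 5202 CPM (median 4402) in the stopped group and 276 to 2577 CPM (median 1488) in the continued group, without overlap (-1.54 ± 0.37 SE, adjusted p = 0.0111, 6 of 6). SERPING1, the inhibitor of C1, showed -1.39 ± 0.27 SE, adjusted p = 0.00397, 6 of 6, and all 6 continued livers were below the stopped ones. SERPINA10, an inhibitor of coagulation factor X, fell by 2.72 ± 0.58 (SE) on the log2 scale (adjusted p = 0.00541), from a stopped median of 1433 to a continued median of 285 CPM. FGA, the fibrinogen alpha chain (-1.11 ± 0.30 SE, adjusted p = 0.018, 6 of 6), and KNG1, the kininogen (-0.75 ± 0.20 SE, adjusted p = 0.0186, 6 of 6), were lower by less, with 5 and 6 of 6 continued mice below every stopped mouse.

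The summed levels of these lists did not separate the groups by exposure alone. The serpins summed to 65784 to 97143 CPM in the stopped mice and to 85834 and 77006 CPM in continued mice 37 and 38, but to 9839 to 29201 CPM in mice 39 to 42. Complement behaved alike, with 36038 to 42686 CPM in the stopped mice, 38279 and 44848 CPM in mice 37 and 38, and 10828 to 15641 CPM in the other continued mice. The gene with the most counts in that sum, C9, had 10155 and 16956 CPM in mice 37 and 38 and at most 2162 CPM in mice 39 to 42. Mice 37 and 38 were singled out after their values were seen, nothing in the labels sets them apart, and no test was made of that division. SERPING1, C1S1 and HC, in contrast, were below every stopped mouse in mice 37 and 38 too. The remaining transport proteins and apolipoproteins gave 1 of 6 lower, APOA5, whose call was lost in 8 of the 12 fits that left out a mouse (adjusted p up to 0.0994), and TTR, the thyroxine carrier, ranged over 18802 to 29862 CPM (median 22249.6) in the stopped group and 8194 to 57079 CPM (median 39317) in the continued group.

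Genes of cell division were higher in the continued livers. Of 46 cell cycle genes on the panel 37 were tested, 17 were higher and none was lower. In 12 genes every continued library was above every stopped one and in 1, not called, below. Of all genes tested, 9.71% were called higher, and the groups did not overlap for 11.8%. CCNA2, the cyclin of DNA synthesis and entry into mitosis, had 9.81, 11.5 and 13.1 CPM in the stopped group and 34.6, 52.1 and 62.1 CPM in the continued group. The groups were far apart relative to their spread (2.13 ± 0.19 SE, adjusted p = 4.06e-05, 6 of 6), and the call held under every alternative. CCND1, the cyclin that starts the cycle, had 8.06, 12.1 and 19.8 CPM in the stopped group and 36.6, 88.6 and 169.7 CPM in the continued group and no overlap (2.91 ± 0.40 SE, adjusted p = 0.000673, 6 of 6), with mice 37 and 38 the lowest of the continued group. CDC20, an activator of the anaphase-promoting complex, had 2.69, 5.61 and 9.92 CPM in the stopped group and 17.9, 27.5 and 92.6 CPM in the continued group (2.79 ± 0.44 SE, adjusted p = 0.00133, 6 of 6).

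CCNB1, the mitotic cyclin, ran at 0.292 to 6.08 CPM (median 2.15) in the stopped group and 7.67 to 35.2 CPM (median 12) in the continued group (2.73 ± 0.59 SE, adjusted p = 0.00575, 6 of 6). NUF2, a kinetochore subunit (2.34 ± 0.37 SE, adjusted p = 0.00133, 6 of 6), and BIRC5, the survivin of the chromosomal passenger complex (2.19 ± 0.41 SE, adjusted p = 0.00367, 6 of 6), did not overlap. The same held, outside the list, for PLK4, the kinase of centriole duplication (2.15 ± 0.39 SE, adjusted p = 0.00301, 6 of 6), and UBE2C, a ubiquitin-conjugating enzyme of mitosis (2.34 ± 0.45 SE, adjusted p = 0.00378, 6 of 6). CENPF, a kinetochore protein, was at 0 to 3.69 CPM (median 1.2) in the stopped group and 6 to 18.3 CPM (median 9.51) in the continued group (2.91 ± 0.70 SE, adjusted p = 0.0109, 6 of 6). These transcripts were scarce, at a few CPM in stopped livers, so that counting error weighed more here than for the plasma proteins. Summed over the list, the stopped mice had 472 to 560.1 CPM and the continued mice 785 to 1170.5 CPM. Of the latter, mouse 37 had 982 CPM, mouse 38 had 785 CPM and mice 39 to 42 had 800 to 1170.5 CPM. MKI67, a proliferation antigen named here after its values were seen, was among the 20 tested members not called (2.23 ± 0.77 SE, adjusted p = 0.0512). AFP, the fetal albumin re-expressed in some liver tumours, was 1.32 ± 0.38 SE, adjusted p = 0.0243, 6 of 6, but the call was lost without mouse 19, 22 or 23 (adjusted p = 0.0501, 0.055 and 0.055).

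**Figure D3:**
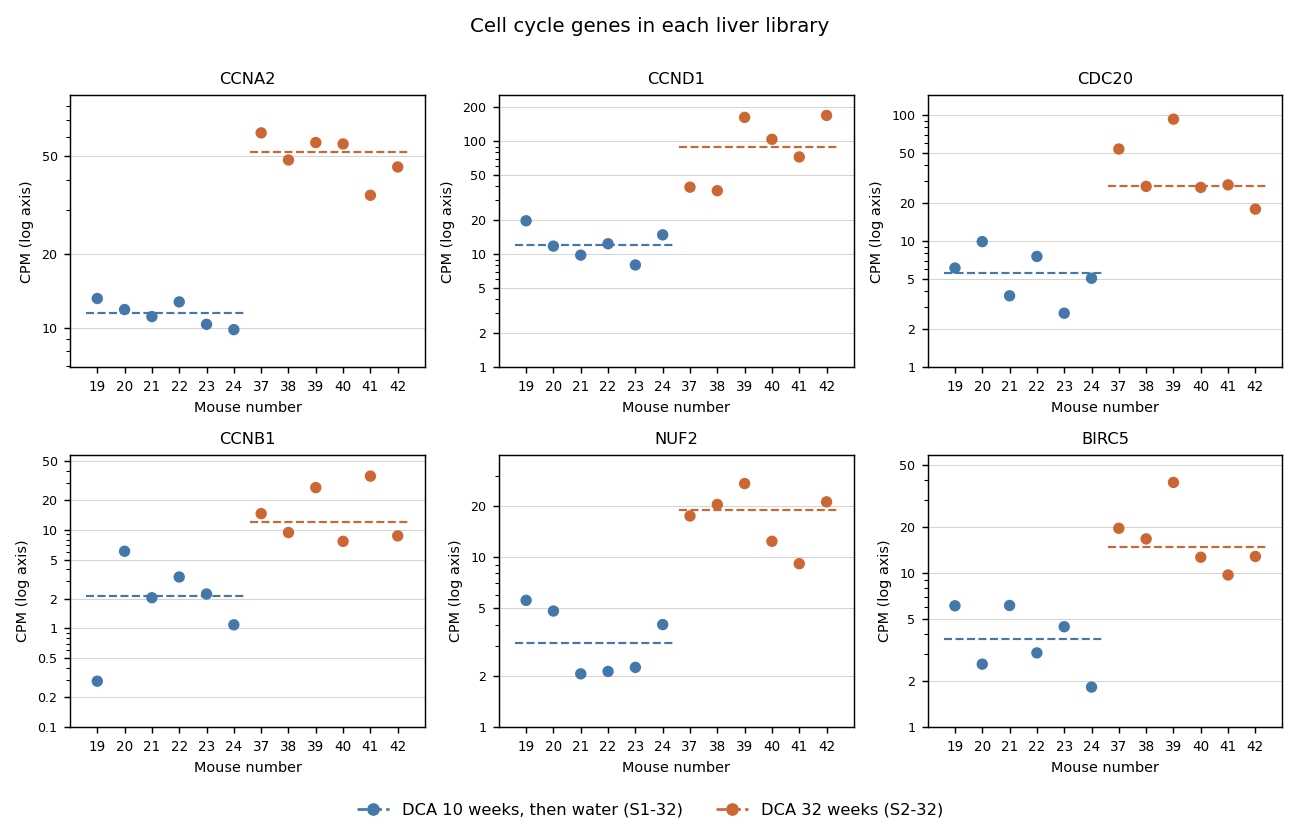
CPM on a log axis for 6 cell cycle genes in each liver, with the median of each group as a dashed line. In all 6 panels the lowest continued liver lies above the highest stopped liver, for CCNA2 at 34.6 against 13.1 CPM.

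Promoters of mitotic genes are known for CCAAT boxes and for the cell cycle homology region, here searched as TTTGAA or TTCGAA, both on either strand. Those of Cdc20 (chr4:118437294-118437593, minus strand) and Ccnb1 (chr13:100786437-100786736, minus strand) are printed as examples, chosen after their values were seen, from the called genes whose groups did not overlap; other members rose by more (RefSeq, GRCm38.p6). In Cdc20 the capitals mark CCAAT at -53 and -8 and TTTGAA at -18, and in Ccnb1 they mark CCAAT at -99 and -67. CCAAT occurred in 10 of 13 cell cycle genes called higher with a promoter in the table, in 15 of 19 not called, and in 37.4% of all 32851 promoters. For the homology region the figures were 6 of 13, 12 of 19 and 19.2%.
Cdc20: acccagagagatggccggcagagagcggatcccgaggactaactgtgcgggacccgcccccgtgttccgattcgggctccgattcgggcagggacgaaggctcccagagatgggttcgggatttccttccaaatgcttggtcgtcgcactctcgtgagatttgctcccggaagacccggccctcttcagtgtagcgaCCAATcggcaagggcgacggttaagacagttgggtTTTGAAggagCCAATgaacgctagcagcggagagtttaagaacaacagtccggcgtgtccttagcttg
Ccnb1: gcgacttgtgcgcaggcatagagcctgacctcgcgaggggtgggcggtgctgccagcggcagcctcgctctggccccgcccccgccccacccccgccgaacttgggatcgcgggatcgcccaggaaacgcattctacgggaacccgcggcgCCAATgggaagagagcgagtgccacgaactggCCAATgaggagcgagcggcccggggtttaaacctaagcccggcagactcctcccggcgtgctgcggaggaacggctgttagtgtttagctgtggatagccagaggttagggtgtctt

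Genes of fatty acid oxidation were higher in some continued livers and not in others. Of 25 PPARA targets and fatty acid oxidation genes, 11 were higher and 1, SCP2, was lower, beside 9.71% and 10.5% of all genes. CYP4A14, an omega-hydroxylase of fatty acids and a sensitive PPARA target, had 0, 1.27 and 28.8 CPM in the stopped group and 2.17, 6797 and 10165 CPM in the continued group. The high values were those of mice 39 to 42, from 4238 CPM up, whereas mice 37 and 38 had 18.7 and 2.17 CPM, within the stopped range. The log2 fold change of 9.73 ± 1.90 SE, adjusted p = 0.00386, 6 of 6, is thus a mean of unlike livers, and it was 11.59 without mouse 22, the stopped mouse with the highest level. Its neighbour CYP4A10, a close paralog, did the same, with 295 to 2639 CPM in mice 39 to 42, 17.1 and 2.54 CPM in mice 37 and 38 and at most 50.6 CPM in the stopped mice (6.77 ± 1.53 SE, adjusted p = 0.00758, 5 of 6; 8.81 without mouse 22).

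PEX11A, a peroxisome division factor, was at 15.7 to 25.7 CPM (median 17.6) in the stopped group and 26.6 to 91.7 CPM (median 79.4) in the continued group and did not overlap (1.77 ± 0.33 SE, adjusted p = 0.00334, 6 of 6), with mice 37 and 38 at 26.6 and 27.5 CPM just above the highest stopped mouse. CPT1B, a carnitine acyltransferase of the outer mitochondrial membrane, was 2.91 ± 0.52 SE, adjusted p = 0.00284, 6 of 6, and 5 of 6 continued mice exceeded every stopped mouse. The read-through transcript CHKBCPT1B, which shares sequence with CPT1B, gave 2.39 ± 0.39 SE, adjusted p = 0.00162, 6 of 6. SCP2, a sterol carrier and peroxisomal thiolase, had 7596, 8995 and 11214 CPM in the stopped group and 3595, 3887 and 5945 CPM in the continued group and no overlap (-1.05 ± 0.21 SE, adjusted p = 0.00414, 6 of 6). The whole list summed to 35965 to 68494 CPM in stopped mice, 43259 and 41944 CPM in mice 37 and 38, and 96007 to 151263 CPM in mice 39 to 42. Immediate-early genes, induced within minutes of a stimulus and only in part encoding transcription factors, moved with the same mice. Of 14 such genes, 6 were higher, beside 9.71% of all genes called higher. Their sum was 115 to 168 CPM in the stopped mice, 206 and 139 CPM in mice 37 and 38 and 406 to 608 CPM in the others. The median log2 fold change, 1.03, was 0.40 with the log2 total count as a covariate. The part of these genes in the other results was not tested.

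A clock gene divided the mice in nearly the same way. DBP, a transcription factor whose level in liver swings widely over the day, had 14.9 and 21.7 CPM in continued mice 37 and 38 and 355 to 901 CPM in mice 39 to 42, and 925 CPM in stopped mouse 19 against 21.4 to 52.7 CPM in the other stopped mice. The groups overlapped and the contrast was not called (adjusted p = 0.481). NFIL3, which represses genes that DBP activates, ran the other way, at 89.6 CPM in mouse 19, 10.9 to 94.2 CPM in mice 39 to 42 and 165 to 312 CPM in the rest. CRY1, a repressor of the clock, was at 26.1 to 48.4 CPM in mice 19 and 39 to 42 and 45 to 99.3 CPM in the rest, with some overlap. None of the 6 circadian clock genes was called, and BHLHE40, which has the most counts of them on this panel, was highest in mouse 19 (1297 CPM) but not in mice 39 to 42 (214 to 369 CPM). In mouse 19 the sums were 68494 CPM for PPARA targets and 97143 CPM for serpins, both the highest of the stopped mice, and 37204 CPM for complement. Its acute phase genes summed to 22573 CPM, within the continued range of 15884 to 34376 CPM. The other stopped mice had 66846 to 595987 CPM. The part of the clock genes in the other results was not tested.

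**Figure D4:**
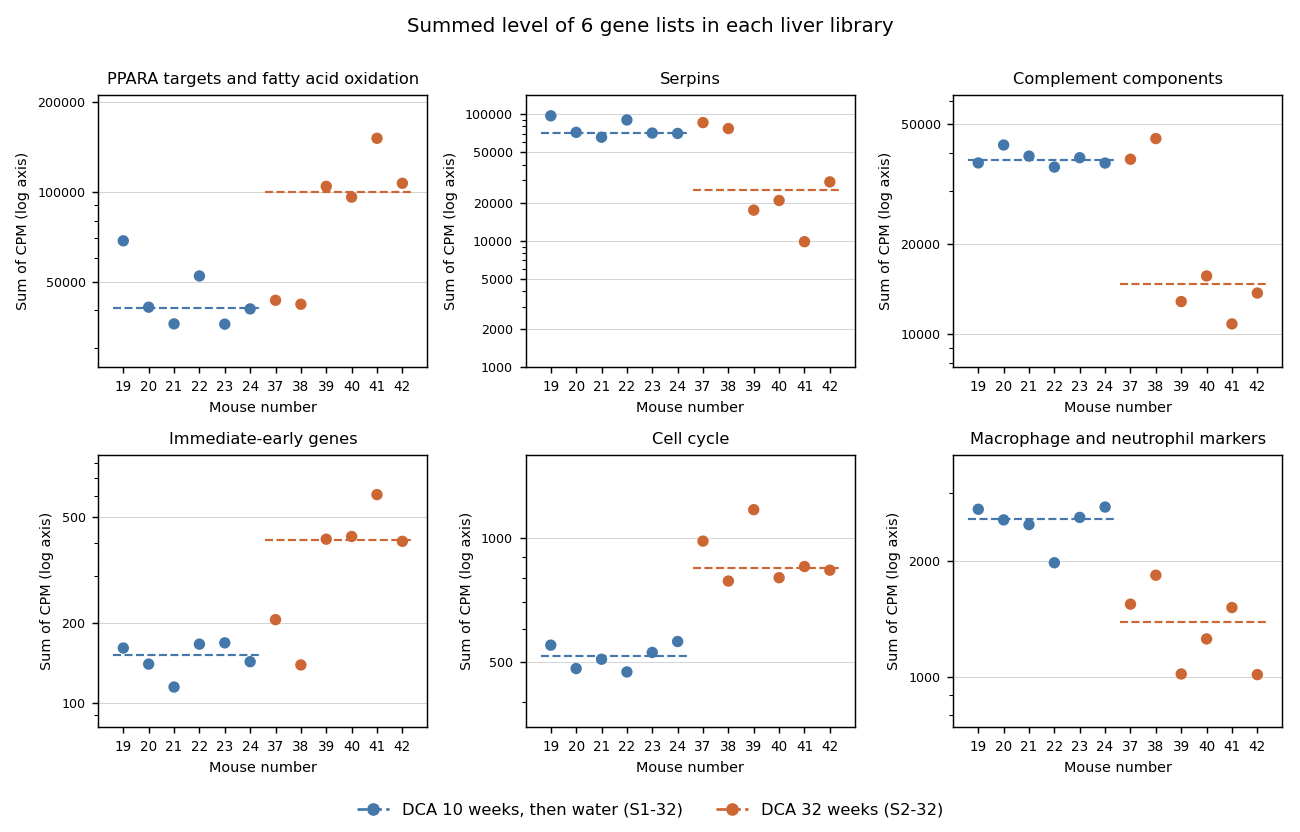
Summed CPM of 6 gene lists in each liver on a log axis, with group medians as dashed lines. Continued mice 37 and 38 lie with or near the stopped mice for PPARA targets, serpins, complement and immediate-early genes, but with the other continued mice for the cell cycle. For macrophage and neutrophil markers they are the highest continued mice, and mouse 38 (1839 CPM) lies near the lowest stopped mouse (1981 CPM).

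The pathway that DCA is known to act on showed a narrow change. PDHX, the subunit that anchors the E3 enzyme in the pyruvate dehydrogenase complex, had 74.8, 82.7 and 98.1 CPM in the stopped group and 139, 172 and 184 CPM in the continued group, with no overlap (0.99 ± 0.13 SE, adjusted p = 0.000397, 6 of 6). It was called under every alternative except a fold beyond 2, its own fold being 1.99. PDHA1, the catalytic subunit (-0.67 ± 0.30 SE, adjusted p = 0.126, 5 of 6), and DLD, the shared E3 enzyme (-0.09 ± 0.30 SE, adjusted p = 0.857, 3 of 6), did not pass the test, and no kinase of the complex was on the panel. GSTZ1, the enzyme that breaks DCA down, ran at 2864 to 5827 CPM (median 2995) in the stopped group and 2548 to 3673 CPM (median 3235) in the continued group (-0.13 ± 0.21 SE, adjusted p = 0.705, 2 of 6). In the respiratory chain and ATP synthase, 8 of 23 genes were higher and none lower (median 0.38, and 0.13 with the covariate), with the smallest p for UQCRFS1, the Rieske protein of complex III (1.13 ± 0.22 SE, adjusted p = 0.00386, 6 of 6), NDUFS7, a subunit of complex I (1.35 ± 0.26 SE, adjusted p = 0.00378, 6 of 6), and ATP5A1 of the ATP synthase (0.83 ± 0.17 SE, adjusted p = 0.00463, 6 of 6), all without overlap. SDHA, of succinate dehydrogenase, was below every stopped liver but did not reach the fold (-0.55 ± 0.17 SE, adjusted p = 0.0329, 6 of 6). Of 17 genes of glucose metabolism 3 were higher, a share near the 20.2% of all genes called. Among them was PGAM1, a mutase of glycolysis (1.56 ± 0.38 SE, adjusted p = 0.0119, 6 of 6).

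Cholesterol synthesis was lower in the continued livers: 5 of 12 genes were called lower and none higher, beside 10.5% of all genes called lower. HMGCS1, which makes the precursor of mevalonate, had 262, 560.1 and 1964 CPM in the stopped group and 103, 141 and 288 CPM in the continued group (-2.16 ± 0.43 SE, adjusted p = 0.00418, 6 of 6). 6 of 6 continued livers lay below the stopped median, and the highest, mouse 41, overlapped only stopped mouse 23. FDFT1, the squalene synthase (-1.15 ± 0.25 SE, adjusted p = 0.00543, 6 of 6), CYP51, a sterol demethylase (-1.17 ± 0.30 SE, adjusted p = 0.0156, 6 of 6), and DHCR7, the last reductase of the pathway (-1.04 ± 0.22 SE, adjusted p = 0.00542, 6 of 6), were lower by less. The promoter of Hmgcs1 (chr13:119690101-119690400, plus strand; RefSeq, GRCm38.p6) is printed because its gene led the list, and the capitals mark TCACNCCAC, the letters of a sterol response element, at -137. On either strand these letters were in 1 of 4 called members with a promoter in the table, in 0 of 5 not called and in 1.24% of all promoters.
Hmgcs1: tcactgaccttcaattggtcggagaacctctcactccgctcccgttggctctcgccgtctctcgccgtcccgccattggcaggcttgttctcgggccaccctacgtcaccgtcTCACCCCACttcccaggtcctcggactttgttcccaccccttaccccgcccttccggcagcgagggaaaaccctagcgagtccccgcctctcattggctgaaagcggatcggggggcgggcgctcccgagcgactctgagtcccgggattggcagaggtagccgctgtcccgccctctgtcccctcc

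Among the genes of bile acid handling, 2 of 9 were lower: SLC10A2, a sodium-dependent bile acid transporter, which had 70.8 to 138 CPM (median 89) in the stopped group and 22.4 to 50.5 CPM (median 33.9) in the continued group without overlap (-1.48 ± 0.22 SE, adjusted p = 0.00076, 6 of 6), and BAAT, which conjugates bile acids (-0.83 ± 0.25 SE, adjusted p = 0.0285, 6 of 6), whose call was lost without mouse 21, 22, 24 or 42 (adjusted p = 0.0575, 0.0673, 0.0553 and 0.0597). CYP7A1, the rate-limiting enzyme of bile acid synthesis, did not pass (-1.63 ± 0.59 SE, adjusted p = 0.0628, 6 of 6), with a stopped range of 17.6 to 731 CPM. In fatty acid synthesis 1 of 10 genes was higher and 1 lower, and in sterol uptake and export 1 of 12, LCAT, was lower. The shares called in these lists and among the bile acid genes were near or below the 20.2% of all genes.

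Lists of growth hormone control had shares of called genes near the 20.2% of all genes, except for the small female-biased list. STAT5B, the transcription factor that conveys the male pulses of growth hormone, had 147, 164 and 194 CPM in the stopped group and 39.5, 61.7 and 76 CPM in the continued group, with no overlap (-1.46 ± 0.16 SE, adjusted p = 0.000187, 6 of 6), and was called under every alternative. The male-biased list gave 3 of 14 lower and none higher, all with separate groups, the other members called being the major urinary proteins MUP15 (-2.87 ± 0.66 SE, adjusted p = 0.00812, 6 of 6) and MUP19 (-1.48 ± 0.30 SE, adjusted p = 0.00463, 6 of 6). GM2083, which RefSeq lists as another name of Mup13, fell from a stopped median of 6049.6 to a continued median of 464 CPM (-3.71 ± 0.37 SE, adjusted p = 9.55e-05, 6 of 6). The panel also has a row named MUP13, given here after its values were seen, which was not called (-0.56 ± 0.33 SE, adjusted p = 0.237; medians 4718 CPM stopped and 2913 CPM continued). These genes are nearly identical in sequence, so reads may have been divided among them, and MUP8 took 17.44% of the counts of mouse 41. In the female-biased list 3 of 6 tested genes were higher, with CYP2A4, a steroid hydroxylase, at 202 to 591 CPM in mice 39 to 42, 20.1 and 18.1 CPM in mice 37 and 38 and at most 28.3 CPM in stopped mice (3.85 ± 0.80 SE, adjusted p = 0.00464, 6 of 6). The others called were CYP4A10, counted already among the PPARA targets, and SULT3A1, a sulfotransferase with 19 counts in the continued and 1 in the stopped libraries (ratio 20.3, exact 95% interval 3.23 to 844), whose call was lost in 10 of the 12 fits that left out a mouse (adjusted p up to 0.0829). Of the members not called, CYP17A1 was 0.83, CYP3A41B was 0.54 and CYP3A41A, with the most counts of the list, was -0.24, so the list median of 2.22 lies between unlike values. Of 17 insulin and IGF signalling genes 2 were higher and 2 lower, including GHR, the growth hormone receptor (-0.77 ± 0.24 SE, adjusted p = 0.0324, 6 of 6), which lost its call without mouse 19, 22, 24, 39 or 42 (adjusted p up to 0.0791).

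Lists of foreign compound metabolism held more genes called higher than lower, except the glutathione transferases, beside 20.2% of all genes called. Of 19 CAR and PXR genes 6 were higher and none lower, among them NR1I2, which encodes PXR itself and had 216, 237 and 349.9 CPM in the stopped group and 352, 505 and 656 CPM in the continued group (1.01 ± 0.18 SE, adjusted p = 0.00271, 6 of 6), with every continued liver above the stopped ones. CYP2C39 (2.08 ± 0.43 SE, adjusted p = 0.00463, 6 of 6) and GSTM3, a glutathione transferase (2.33 ± 0.45 SE, adjusted p = 0.00378, 6 of 6), did not overlap either. ARNT, the partner of the dioxin receptor, had a small and even rise (0.75 ± 0.12 SE, adjusted p = 0.00155, 6 of 6), from 280.3 to 341 CPM (median 320.0) in the stopped group and 484 to 563 CPM (median 519.5) in the continued group. ALDH3A2, a fatty aldehyde dehydrogenase, was higher (2.90 ± 0.66 SE, adjusted p = 0.00781, 4 of 6), with 4 continued mice above every stopped one and mice 37 and 38 in the stopped range, and CES2H, a carboxylesterase, was lower (-3.61 ± 0.71 SE, adjusted p = 0.00386, 6 of 6) at 4.03 to 14.7 CPM (median 8.95) in the stopped group and 0 to 1.81 CPM (median 0.271) in the continued group. The list that holds ALDH3A2 and CES2H, of carboxylesterases, flavin monooxygenases and aldehyde dehydrogenases, gave 4 higher and 3 lower of 21. The glucuronosyltransferase and sulfotransferase list gave 3 of 15 higher, and the glutathione transferases 1 of 10 higher and 1 lower, both near the share of all genes.

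The stress lists held calls in both directions, at shares near or above the 20.2% of all genes except for the chaperones of the endoplasmic reticulum. Of 15 p53 targets 4 were higher and 1 lower, with CDKN1A, the inhibitor p21, at 10.3 to 51.2 CPM (median 22.3) in the stopped group and 35.4 to 127 CPM (median 91.3) in the continued group (1.82 ± 0.39 SE, adjusted p = 0.00559, 6 of 6) and 5 of 6 continued mice above every stopped one. ATF3, a stress-induced transcription factor, had 1.79, 2.67 and 3.33 CPM in the stopped group and 5.43, 9.64 and 19.7 CPM in the continued group and no overlap (2.10 ± 0.39 SE, adjusted p = 0.00337, 6 of 6). CHAC1, which degrades glutathione, went the other way (-2.21 ± 0.55 SE, adjusted p = 0.0121, 6 of 6), so that the ATF4 list held 2 higher and 1 lower of 15. Of 24 NRF2 genes 4 were higher and 1, the autophagy receptor SQSTM1 (-0.71 ± 0.18 SE, adjusted p = 0.0136, 6 of 6), was lower. The chaperones of the endoplasmic reticulum gave 2 of 20 lower, among them EDEM1 (-1.10 ± 0.25 SE, adjusted p = 0.00712, 6 of 6), and summed to 10453 to 15338 CPM in stopped mice, 14938 and 16232 CPM in mice 37 and 38 and 7601 to 9891 CPM in mice 39 to 42, with a median log2 fold change of -0.31 that turned to 0.24 with the covariate. The metallothionein MT2 had a count in all 6 stopped libraries, 0.584 to 4.93 CPM, and none in the continued ones, near the limit of detection.

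Summed markers of macrophages and neutrophils and of endothelial cells did not overlap between the groups. Those of lymphocytes did, at 96.6 to 177 CPM in the stopped and 49.7 to 137 CPM in the continued mice. The counts of called markers below stand beside 10.5% of all genes called lower. Of 13 macrophage and neutrophil markers on the panel 11 were tested, 5 were lower and none higher, S100A8 had no count in 6 or more libraries, and the sum of the 13 was 1981 to 2762 CPM in the stopped and 1017 to 1839 CPM in the continued mice. MPEG1, a pore-forming protein of macrophages and the gene with the most counts in that sum, had 398, 683 and 943 CPM in the stopped group and 135, 207 and 269.6 CPM in the continued group, without overlap (-1.76 ± 0.22 SE, adjusted p = 0.000397, 6 of 6), and C1QC, a complement subunit made by macrophages, ran at 215 to 344 CPM (median 284) in the stopped group and 80.7 to 198 CPM (median 120.1) in the continued group (-1.11 ± 0.21 SE, adjusted p = 0.00376, 6 of 6). In sections of whole liver, fewer macrophages and less of these RNAs per cell cannot be told apart. PTPRC, the leukocyte antigen CD45, was below every stopped mouse in all 6 continued mice (-1.58 ± 0.30 SE, adjusted p = 0.00376, 6 of 6), as part of 3 lower among 8 lymphocyte markers. Of 6 endothelial markers 2 were lower, KDR, a receptor of vascular endothelial growth factor, with 197, 204 and 258 CPM in the stopped group and 62.5, 91.4 and 124 CPM in the continued group (-1.23 ± 0.18 SE, adjusted p = 0.00076, 6 of 6), and ELTD1, an adhesion receptor (-1.66 ± 0.25 SE, adjusted p = 0.000927, 6 of 6), whereas VWF (0.54 ± 0.20 SE, adjusted p = 0.067, 5 of 6) and TEK (-0.44 ± 0.20 SE, adjusted p = 0.131, 5 of 6) did not pass. All 6 endothelial markers had counts in most libraries, and their sums, 343 to 459 CPM stopped and 169.7 to 271 CPM continued, did not overlap, although the median of -0.65 was -0.22 with the covariate. IL18, an interleukin of macrophages and other cells, was lower as well (-2.16 ± 0.43 SE, adjusted p = 0.00435, 6 of 6).

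Stellate cell and fibroblast markers went up where they changed, 4 of 9 higher and none lower, beside 9.71% of all genes called higher. COL1A1, the alpha 1 chain of type I collagen, had 41.9, 74.7 and 118 CPM in the stopped group and 167, 276 and 581 CPM in the continued group, and every continued liver exceeded the stopped ones (2.03 ± 0.32 SE, adjusted p = 0.00133, 6 of 6). LRAT, which stores retinol in stellate cells, was apart too (0.88 ± 0.23 SE, adjusted p = 0.0153, 6 of 6). COL1A2 (1.31 ± 0.37 SE, adjusted p = 0.0235, 6 of 6) and COL3A1 (0.91 ± 0.26 SE, adjusted p = 0.0247, 6 of 6) lost their calls without mouse 20 (adjusted p = 0.0501 and 0.056) or without mouse 21 (adjusted p = 0.0518 and 0.0559), and COL3A1 also without mouse 23 (adjusted p = 0.0576). FN1, the fibronectin that hepatocytes secrete in bulk, was lower, with 5217, 6664 and 8564 CPM in the stopped group and 2019.8, 3006 and 3577 CPM in the continued group (-1.14 ± 0.20 SE, adjusted p = 0.00284, 6 of 6). Among 27 matrix genes, which include COL1A1, COL1A2 and COL3A1 again, 4 were higher and 2 lower, and their median of 0.22 turned to -0.25 with the covariate. The sum of the stellate list was 224 to 486 CPM in the stopped and 389 to 979 CPM in the continued mice.

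Hepatocyte markers, as the labelled tissue has them, were present in every library, and their sum was 40941 to 73068 CPM in the stopped and 60055 to 113009 CPM in the continued mice. Of 7 markers, 2 were higher, HNF4A and FABP1, a share not far from the 20.2% of all genes called. CPS1 (-0.34) and APOA1 (-0.14) had negative values and were not called. FABP1, a fatty acid binding protein, lost its call in 6 of the 12 fits that left out a mouse (adjusted p up to 0.0689). HNF4A, a transcription factor of hepatocyte identity, was above every stopped mouse (0.71 ± 0.22 SE, adjusted p = 0.0298, 6 of 6), but the call was lost without mouse 21, 22, 23 or 24 (adjusted p = 0.0594, 0.064, 0.0705 and 0.0501) and fell under the fold without mouse 41 (log2 fold change 0.51). None of 4 cholangiocyte markers and none of 5 erythroid markers was called, and the erythroid sum was highest in mouse 38 (4562 CPM).

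Pancreas genes did not follow exposure but a single liver. Their 18 markers on the panel summed to 4323 CPM in stopped mouse 19, 351 to 634 CPM in the other stopped mice and 100.5 to 475 CPM in the continued mice, with the most counts from AMY1, an amylase. CPA1, a digestive carboxypeptidase, had 697 CPM in mouse 19 and at most 3.04 CPM elsewhere. CPA1, CELA3B and AMY2A5 were called lower (-7.16, -7.81 and -5.90 on the log2 scale), and without mouse 19 CPA1 was 1.47 (adjusted p = 0.451), CELA3B -1.24 and AMY2A5 -0.78, none of them called. CELA3B rests on 487 stopped counts and 1 continued count, a ratio of 456 (exact 95% interval 81.4 to 18034, counting error only). Fits without single continued mice also lost these calls, at adjusted p up to 0.0851. In 10 of the 18 markers, among them the trypsinogen PRSS1 and the lipase PNLIP, 6 or more libraries had no count, and 7 were too low to be tested. The median of the list went from -4.00 to 1.47 without that mouse. Without the mouse 392 genes were called, 368 of them among the 446, and the part of this RNA in the levels of mouse 19 was not tested. Muscle and brain genes, which the panel also holds, gave 1 of 15 higher and 3 lower, beside 20.2% of all genes called. Their median was 0.72, and -0.67 with the covariate. Their levels were low, such as NEB at 10.8 to 19.6 CPM (median 15.4) in the stopped group and 0 to 6.33 CPM (median 2.71) in the continued group and ACTA1 (-0.91 ± 0.24 SE, adjusted p = 0.018, 6 of 6).

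Of a list of 12 genes chosen with earlier results of this study known, and so not independent of these libraries, COL1A1 was higher, IRS1 was lower and 10 were not called, against 20.2% of all genes. IRS1, the insulin receptor substrate, was at 53.1 to 86.5 CPM (median 72.8) in the stopped group and 28.8 to 76 CPM (median 34.2) in the continued group (-0.75 ± 0.24 SE, adjusted p = 0.0396, 5 of 6), and its call was lost in 9 of the 12 fits that left out a mouse (adjusted p up to 0.0948). The catenin CTNND1 (0.61 ± 0.25 SE, adjusted p = 0.105, 6 of 6) and the type IV collagen COL4A1 (0.88 ± 0.32 SE, adjusted p = 0.0645, 5 of 6) had positive values that missed the threshold. Of 18 interferon-stimulated genes 2 were higher and 2 lower, with IFITM3, an antiviral membrane protein, at 1849 to 3065 CPM (median 2743) in the stopped group and 66.2 to 1003 CPM (median 865) in the continued group (-1.79 ± 0.44 SE, adjusted p = 0.0115, 6 of 6) and CXCL10, a chemokine, on the other side (1.61 ± 0.48 SE, adjusted p = 0.0285, 6 of 6), its call lost without mouse 21, 22, 23 or 38 (adjusted p = 0.0581, 0.0508, 0.0607 and 0.0502). The 3 urea cycle genes gave no call.

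The same contrast exists at 57 weeks in other mice, 5 given DCA for 57 weeks (S3-57) and 6 given DCA for 10 weeks and water for 47 (S1-57), and the 2 contrasts share no library. In a model of these 4 groups, 162 genes (7.35%) were called at 32 weeks and 2 (0.0907%) at 57 weeks, and of all genes 53.11% had the same sign at both times, of the 162 genes 44.44%. The difference between the contrasts, tested directly, passed an adjusted p of 0.05 for 22 genes (0.998%), 8 with the more positive value at 32 weeks and 14 with the more negative. ORM3, which is outside the acute phase list, was -6.59 ± 0.82 (SE) at 32 weeks and 2.37 ± 0.58 (SE) at 57 weeks (difference -8.96 ± 1.01, adjusted p = 7.73e-06). LCN2 was -8.47 ± 1.18 (SE) at 32 weeks and 1.49 ± 0.90 (SE) at 57 weeks (difference -9.96 ± 1.44, adjusted p = 0.000331). SAA2 and SAA1, and LRG1, also outside that list, followed in the same direction and, like ORM3 and LCN2, kept the call in all 23 fits that left out a library (ORM3 -10.82 to -8.69, LCN2 -10.40 to -9.31). HP differed too, so that 4 of the 17 acute phase genes (LCN2, SAA1, SAA2 and HP) did, but it lost the call in 12 of those fits (adjusted p up to 0.0749). CYP4A14 was 9.74 ± 1.63 (SE) at 32 weeks and -2.19 ± 1.45 (SE) at 57 weeks (difference 11.92 ± 2.14, adjusted p = 0.00325) and kept its call in all 23 (11.60 to 13.75). CYP4A10, ACAA1B and DECR1 brought the PPARA targets that differed to 4 of 25, CYP4A10 losing its call in 9 fits (adjusted p up to 0.0575).

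MPEG1 was -1.75 ± 0.34 (SE) at 32 weeks and 0.61 ± 0.35 (SE) at 57 weeks (difference -2.37 ± 0.48, adjusted p = 0.0138), called in all 23 fits that left out a library. CCNA2 was 2.14 ± 0.46 (SE) at 32 weeks and -0.52 ± 0.47 (SE) at 57 weeks (difference 2.66 ± 0.66, adjusted p = 0.0474) and COL1A1 was 2.06 ± 0.48 (SE) at 32 weeks and -0.78 ± 0.50 (SE) at 57 weeks (difference 2.83 ± 0.70, adjusted p = 0.046), but these differences were lost in 19 and 18 of the 23 fits (adjusted p up to 0.0885 for either), so a change with time was not established for them. In 21 of the 22 genes the values at the 2 times had opposite signs, which choosing genes by their difference favours. The gene LOC552876, singled out for its values, was the only one of the 22 called at 57 weeks and not at 32 (-5.15 and 0.03). The number of differing genes was 8 in the model of 13 groups and 83 in DESeq2, and ran from 8 to 37 when a library was left out, falling to 8 without mouse 20, 21 or 39 and rising to 37 without mouse 54. The stopped library of mouse 27 at 57 weeks stood apart, with 2672 genes of at least 10 counts against 2103 at most in the other 22, and without it 25 genes differed. Of the 162 genes called at 32 weeks, 125 had an unadjusted p below 0.05 for the difference, a share raised by their having been chosen for the value at 32 weeks, and a missed threshold does not make the times alike.

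**Figure D5:**
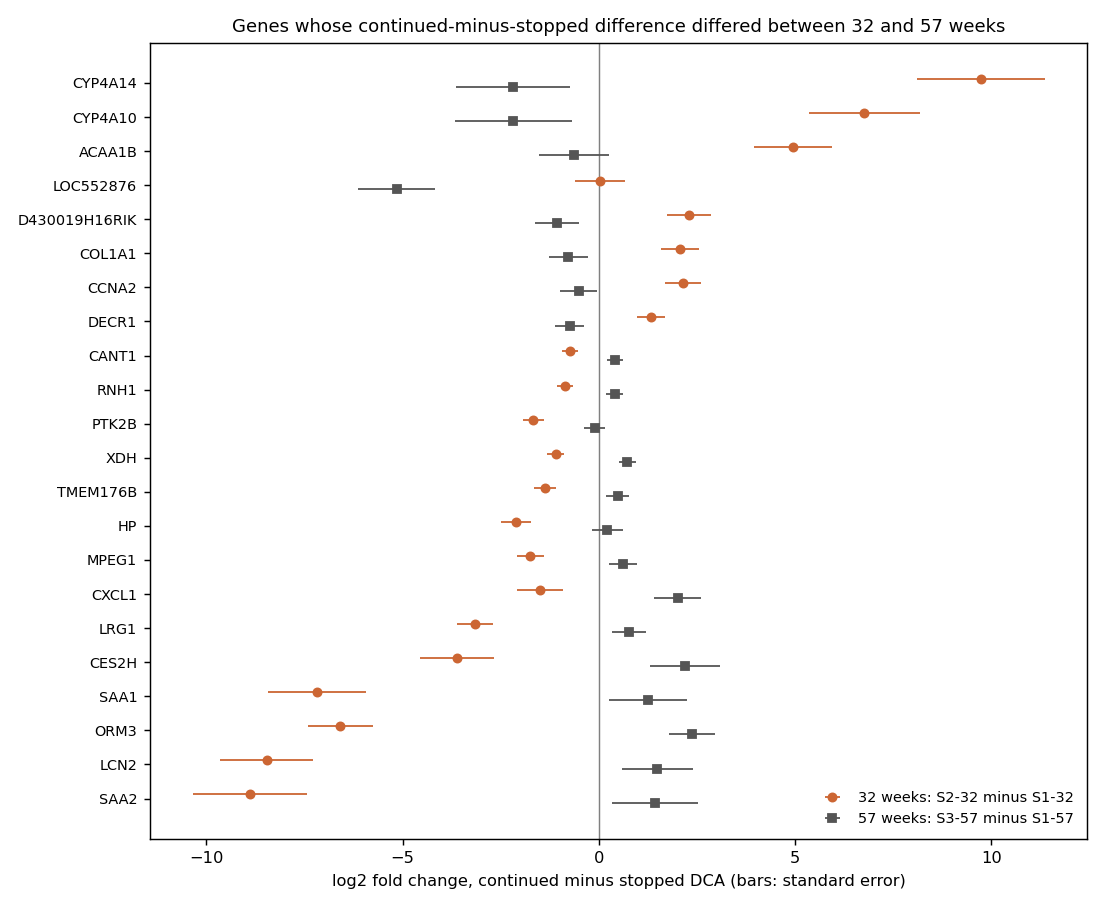
Log2 fold changes, continued minus stopped DCA, with standard errors for the 22 genes whose contrast differed between 32 weeks (circles) and 57 weeks (squares). SAA2, LCN2 and ORM3 lie far to the left at 32 weeks and slightly to the right at 57 weeks, and CYP4A14 the other way round.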

How the data were processed

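The deposited files held 78 liver libraries of a targeted RNA panel (TempO-Seq mouse S1500+, 2755 genes). The authors aligned the reads and summed raw counts per gene, with Bowtie, Partek 10.0.22.0524 and the mm10 build named in the labels, and these counts were used as deposited. A second table, deposited by the authors, holds a normalized signal for 68 libraries, each value being the count plus 1 divided by a factor for the library, and a filtered table keeps the same signal for 2205 genes. The normalized table was used for which libraries were kept and for an alternative test, the filtered one for which genes were tested. Groups came from the treatment and time labels, and each library is from a separate mouse.

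The 12 libraries of the continued and stopped groups were fitted in edgeR 4.0.16 (R 4.3.3) with TMM factors and the quasi-likelihood test, continued minus stopped, with Benjamini-Hochberg adjustment over the 2205 genes. A gene was called at an adjusted p of at most 0.05 and a fold beyond 1.5. The difference between 32 and 57 weeks was tested as a contrast in a model of 4 groups (23 libraries), at an adjusted p of at most 0.05. Depth was compared with a two-sided exact permutation test over the 6 against 6 mice. Lists were described by counts and medians, without a test. Total counts of 1484484 to 3914572 set the precision of low levels.

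Named genes were up to 12 with the largest rise and 12 with the largest fall among called genes whose groups did not overlap and whose mean reached 10 CPM in either group; a list of 12 genes taken from earlier results of the study; up to 4 members of each of 47 lists by p; GSTZ1 and the pyruvate dehydrogenase list; and the 6 genes with the smallest p for the difference between the times. The groups, members and lists were chosen with earlier results of these data known. Alternatives were other scaling factors (RLE, upper quartile), other gene filters, DESeq2 1.42.0, limma 3.58.1 on the deposited signal, a model of 13 groups, the log2 total count as a covariate, thinning to the lowest total, other thresholds and leaving out each library; leaving out mice 19 and 41 together was chosen after seeing the data, as were, for list medians, the leave-outs, the gene filters, DESeq2 and the model of 13 groups. Ratios resting on 1 to 3 counts have an exact (Clopper-Pearson) 95% interval, which covers counting error only. The fitting code was tested on simulated data. A result of 1 gene is not reported here. Promoters came from RefSeq (GRCm38.p6), and the motifs were chosen after the expression values were known; a match is a stretch of letters, not a binding site. Tables and plots were made in Python 3.11.15 with pandas 2.3.3, numpy 2.4.6 and matplotlib 3.10.9.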

Additional observations from a re-analysis of the deposited data

Results flagged for a closer look

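Every named gene and 3 depth measures were examined in both groups for a library far from the other 5, on a log2 scale for genes, which made 398 tests. Such a library was found 52 times, 23 of them stopped mouse 19 and 17 continued mouse 41; chance flags about 1 in 20 groups. Levels of the rest of the group stand in brackets. Stopped mouse 19 had DBP, a clock output factor, at 925 CPM (21.4 to 52.7), NFIL3, a repressor of DBP targets, at 89.6 CPM (208 to 312) and IGFBP1, a binding protein of IGF, at 13.1 CPM (122 to 376). Its pancreas genes stood out, with CPA1 at 697 CPM (0 to 1.28), CELA2A at 323 CPM (2.18 to 6.98), CELA3B at 141 CPM (0 to 0.606) and AMY2A5 at 144 CPM (0 to 0.96). It also had OLIG1 at 32.4 CPM (6.9 to 11.8), LCAT at 121 CPM (229.6 to 262), PROS1 at 12.5 CPM (30.1 to 46.8), ORM3 at 0.584 CPM (13 to 25), GSTZ1 at 5827 CPM (2864 to 3292), DPM1 at 589 CPM (316 to 394), ALDH2 at 7536 CPM (5099 to 5805) and IL18 at 27.4 CPM (21.3 to 23.3). Further values of that mouse were ELOVL5 at 1626 CPM (595 to 843), SDHA at 2745 CPM (1648 to 1994), IDH3G at 917 CPM (651 to 719), AEN at 75.9 CPM (43.1 to 49.7), NR1I2 at 349.9 CPM (216 to 238), MUP3 at 16033 CPM (6292 to 8315), C1S1 at 1916 CPM (1595 to 1699) and APOC3 at 2285 CPM (876 to 1208). Continued mouse 41 had MUP15 at 13.4 CPM (616 to 1574), SERPINA10 at 11.5 CPM (243 to 361), SERPINA3N at 10.3 CPM (106 to 134), IFITM3 at 66.2 CPM (789 to 1003), HC at 276 CPM (1331 to 2577), SERPING1 at 297 CPM (706 to 828), KNG1 at 802 CPM (1423 to 1840.2) and C1RA at 0 CPM (31 to 101). It further had APOE at 17969.7 CPM (25457 to 30323), LCAT at 25.5 CPM (95.5 to 137), SQSTM1 at 261 CPM (440.3 to 567), AHR at 24.9 CPM (67.3 to 89.5), PTPRC at 4.86 CPM (12.3 to 20.7), IL18 at 0 CPM (5.16 to 7.61), ACTA1 at 18.8 CPM (39.9 to 55.1), HNF4A at 5277 CPM (2671 to 2891) and CELA2A at 19.4 CPM (0 to 1.67). Stopped mouse 20 had CTH at 1047 CPM (1551 to 1703), MAT1A at 6089.9 CPM (8124 to 9051), HSPA8 at 0.64 CPM (1.64 to 2.42) and CXCL10 at 1.92 CPM (14.3 to 34.9), and stopped mouse 22 CYP4A10 at 50.6 CPM (0.821 to 4.93) and SULT3A1 at 0.303 CPM (0 in the rest). Single values were PGAM1 at 11.9 CPM (20.1 to 26.4) in stopped mouse 21, USP18 at 137 CPM (64.8 to 74.3) in stopped mouse 23, CCL3 at 0.271 CPM (0 in the rest) in continued mouse 37 and COL4A1 at 10.3 CPM (29.7 to 49.4) in continued mouse 42. Continued mouse 38 had CELA3B at 0.362 CPM (0 in the rest) and ORM3 at 0.725 CPM (0 in the rest), a few counts or fewer.

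The contrast of continued with stopped exposure differed between 32 and 57 weeks for 22 genes by a test of that difference in edgeR. Among the named genes, the log2 difference, 32 minus 57 weeks, was -10.31 for SAA2, -9.96 for LCN2, -8.96 for ORM3, -8.43 for SAA1, -5.82 for CES2H, -3.93 for LRG1, -3.50 for CXCL1, -2.37 for MPEG1, -2.33 for HP and -1.82 for XDH. It was 11.92 for CYP4A14, 8.95 for CYP4A10, 2.83 for COL1A1 and 2.66 for CCNA2. Of these 14, the call was lost when a library was left out for CCNA2 (in 19 of 23 fits), COL1A1 (18), HP (12), CXCL1 (12), CYP4A10 (9) and CES2H (4), at adjusted p up to 0.0906.

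Genes that the authors left out of the filtered table were tested once beside the rest. Of 536 such genes with a count, 20 were called, 15 higher and 5 lower in the continued group. CYP4A31, of the omega-hydroxylase family, was at 0 to 0.909 CPM in the stopped and 0.362 to 53.2 CPM in the continued mice, with mice 37 and 38 at 2.98 and 0.362 CPM. LOX, a collagen cross-linking enzyme, was at 0 to 1.34 and 1.92 to 5.46 CPM. PRSS2, a trypsinogen, had 389.9 CPM in stopped mouse 19 and at most 0.96 CPM elsewhere. These 3 were picked after their values were seen.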

How the results depend on the processing

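The 446 called genes (214 higher, 232 lower) became 78 (47 and 31) in the model of 13 groups, 42 (23 and 19) with the log2 total count as a covariate, 181 (87 and 94) at an adjusted p of 0.01 and 276 (142 and 134) at a fold of 2; the cause was not tested for the former pair, and the latter follow from their thresholds. The share of higher genes was 47.98% at first and 60.26% in the model of 13 groups. With other scalings, filters, tools, thinning or a library left out, the number stayed between 336 and 552. With the thresholds unchanged, 92 of the 136 named genes called lost the call only in the model of 13 groups or with the covariate, and 7 were called throughout. With the covariate, the signs of CELA3B (1.25), AMY2A5 (2.49) and CPA1 (0.31) reversed, CPA1 was 0.72 without mice 19 and 41, and it ran from -7.80 to 1.47 with single mice left out. List medians moved with the covariate for the respiratory chain (0.13), urea cycle (0.32), endoplasmic reticulum chaperones (0.24), coagulation factors (0.0557), serpins (0.0985), collagens and matrix (-0.25), immediate-early genes (0.40), glucocorticoid genes (0.35), cholangiocyte (0.91), endothelial (-0.22) and muscle and brain markers (-0.67). The filterByExpr genes gave 0.40 for glucocorticoid genes and -0.92 for pancreas markers, from fewer genes. On the deposited signal limma gave 1.27 for the cell cycle and -0.84 for pancreas markers, and without mice 19 and 41 the latter were at -0.61; the cause was not tested. Leaving out single mice gave -0.26 to 0.12 for cytokines and -5.75 to 1.47 for pancreas markers. The 22 genes differing between the times were 8 in the model of 13 groups, 83 in DESeq2 and 8 to 37 with a library left out, cause not tested. No paired analysis was possible because the replicate numbers are mouse numbers that no groups share. Depth was lower in the continued group, which limits what can be said of scarce transcripts there, and with 6 mice a group a missed threshold does not show that values were equal.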

Other observations

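Several lists gave mixed counts beside the 20.2% of all genes called. Liver tumour markers and beta-catenin targets had 2 higher and 2 lower of 13, median 0.07. Carboxylesterases, flavin monooxygenases and aldehyde dehydrogenases had 4 higher and 3 lower of 21, median 0.04. Cytosolic heat shock proteins had 1 higher and 2 lower of 14, median 0.41, and inflammatory cytokines and chemokines 1 higher and 3 lower of 18, median -0.11. Enzymes of tyrosine and methionine breakdown had 2 higher and 0 lower of 6, median 0.42, and their summed level was 15197 to 25124 CPM in the stopped and 22490.3 to 37855 CPM in the continued mice. Glucocorticoid-responsive genes had 2 higher and 2 lower of 6, median 0.00, with the highest sums in continued mice 37 (2769.9 CPM) and 38 (3193 CPM).

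In the model of 4 groups, the list medians at 32 and 57 weeks were -1.33 and 0.00 for acute phase genes, 1.61 and -0.18 for the cell cycle and 0.92 and -0.29 for PPARA targets. Some lists kept their direction, among them endothelial markers at -0.65 and -1.37 and male-biased genes at -0.67 and -1.03. These medians carry no test.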
